A study of Mus musculus with 15 samples.

Results

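The transcript levels of 9 genes used as markers of primitive endoderm (Gata4, Gata6, Sox17, Sox7, Foxa2, Pdgfra, Dab2, Cubn and Amn) were followed by RNA-seq in mouse embryonic stem cells (ESC) with and without knockdown of Smarcb1, which codes for a shared component of BAF chromatin remodellers. The members were taken by gene symbol, and each symbol matched 1 of the 55228 genes listed in every library. Cells of the line 81K1, made from the ESC line OG2, carried in all groups a cassette at the Rosa26 locus that expresses an shRNA against Smarcb1 from a doxycycline-dependent promoter. All groups were grown on gelatine in medium with serum and LIF. There were 5 groups of 3 libraries each: untreated cells after 48 h (48 h ctrl) or 240 h (240 h ctrl), and cells given doxycycline daily for 48 h, 72 h or 240 h (kd). The line descends from a single targeted clone, and no doxycycline-treated cells without the shRNA were analysed here. For want of a ctrl group of 72 h among these libraries, 72 h kd was compared with 48 h ctrl. Nothing in the labels says that the 3 libraries of a group came from separate cultures, and the p-values measure the spread between these libraries, which may be technical.

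Primitive endoderm is the epithelium that separates from the epiblast in the late blastocyst and gives rise to the visceral and parietal endoderm of the yolk sacs. In the inner cell mass FGF4 from the epiblast precursors acts through FGF receptors and ERK to sustain Gata6, which opposes Nanog, and Pdgfra, Sox17, Gata4 and Sox7 follow. The later epithelium takes up maternal protein through a receptor made of cubilin (Cubn) and amnionless (Amn), with Dab2 as a clathrin adaptor. ESC stand for the epiblast side of this choice, express these genes at low levels and hold few cells of endodermal character in medium with LIF. Several of the genes have other uses outside primitive endoderm: Sox7 and Sox17 in endothelium, Pdgfra, Gata4 and Gata6 in mesenchyme, and Foxa2 in definitive endoderm and floor plate.

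The promoters of the 4 genes that were higher in kd than in ctrl cells at 240 h and that have a RefSeq entry used here are printed because these genes were called higher in the same comparison. Each covers 250 bases before to 50 after a gene start (RefSeq, GRCm38.p6), 5′ to 3′ on the gene's strand. Capitals mark GATA motifs (AGATAA or TGATAA on either strand), and AACAAT was searched as the SOX motif.
Dab2, chr15:6299539-6299838, plus strand: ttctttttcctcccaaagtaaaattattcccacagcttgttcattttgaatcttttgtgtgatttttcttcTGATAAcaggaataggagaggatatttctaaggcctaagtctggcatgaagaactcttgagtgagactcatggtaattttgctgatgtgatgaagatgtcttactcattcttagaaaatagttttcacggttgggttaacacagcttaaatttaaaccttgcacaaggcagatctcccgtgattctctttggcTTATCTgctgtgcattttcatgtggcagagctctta
Pdgfra, chr5:75152001-75152300, plus strand: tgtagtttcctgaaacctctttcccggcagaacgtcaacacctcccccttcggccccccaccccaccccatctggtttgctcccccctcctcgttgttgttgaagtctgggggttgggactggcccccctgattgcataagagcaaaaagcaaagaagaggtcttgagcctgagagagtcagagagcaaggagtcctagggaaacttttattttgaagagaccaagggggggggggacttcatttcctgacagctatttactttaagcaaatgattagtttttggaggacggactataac
Cubn, chr2:13491827-13492126, minus strand: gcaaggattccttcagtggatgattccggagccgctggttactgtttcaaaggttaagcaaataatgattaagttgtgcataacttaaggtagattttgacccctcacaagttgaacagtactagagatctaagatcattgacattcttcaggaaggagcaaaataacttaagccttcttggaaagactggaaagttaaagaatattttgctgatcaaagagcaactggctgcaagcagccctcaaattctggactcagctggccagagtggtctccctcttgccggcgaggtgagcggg
Amn, chr12:111270846-111271145, plus strand: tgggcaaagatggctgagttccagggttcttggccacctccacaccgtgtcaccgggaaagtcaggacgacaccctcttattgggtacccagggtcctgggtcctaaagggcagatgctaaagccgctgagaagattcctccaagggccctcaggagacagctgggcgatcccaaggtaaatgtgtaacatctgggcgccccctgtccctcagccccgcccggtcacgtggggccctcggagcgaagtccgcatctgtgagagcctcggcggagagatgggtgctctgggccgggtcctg
The printed Dab2 window held 2 GATA matches, TGATAA at positions 72 to 77 and TTATCT, the reverse complement of AGATAA, at 265 to 270, counted from 1 at the 5′ end. Another RefSeq window of Dab2, at chr15:6386498-6386797 and inside the gene, held neither motif and had 59.3% G and C. Which of these starts the cells used was not tested. Neither motif was found in the windows of Pdgfra, Cubn and Amn. Of 32544 RefSeq promoters of the same length, 18.5% held a GATA match and 10.6% a SOX match, so that these letters are common. G and C made up 37.7% of the printed Dab2 window, 44.3% of the Cubn window, 51% of the Pdgfra window and 62.3% of the Amn window, beside a median of 53% over all promoters.

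The deposited values are FPKM, reads scaled to gene length and library total, which here count reads over the whole gene span with introns and without regard to strand. Whole reads could be recovered from them (totals of 11074998 to 14515300 per library). The target checked the labels: Smarcb1 was at 3.60 ± 0.29 FPKM (SD, n = 3) in 48 h ctrl and 3.42 ± 0.12 FPKM in 240 h ctrl cells. The kd cells held 0.647 ± 0.16 FPKM at 48 h, 0.564 ± 0.066 FPKM at 72 h and 0.660 ± 0.053 FPKM at 240 h. The ESC markers were high in all groups, with group means of 244 to 311 FPKM for Pou5f1, 251 to 357 FPKM for Sox2 and 60.1 to 82.2 FPKM for Nanog. The library 48 h kd replicate 2 stood apart, with a mitochondrial share of 2.35% where the others had 0.469% to 1.81%, and with the largest distance from its replicates. Results that turn on it are given without it. The library 240 h ctrl replicate 3, which had the share of 0.469%, also differed from its replicates. Its chi-square per degree of freedom was 8.89 and 5.02 against them, beside 11.3 and 9.14 for 48 h kd replicate 2. The 240 h kd libraries had reads in 26393 to 26535 genes, against 24684 to 25836 in the other libraries.

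All 9 genes were expressed at low levels. Group means lay between 0.00659 and 0.0902 FPKM for Gata4, Gata6, Sox17, Foxa2, Pdgfra, Dab2 and Cubn, and reached 0.569 FPKM for Sox7 and 0.541 FPKM for Amn. Per library this amounted to 6 to 123 reads for Gata4, Gata6, Pdgfra, Dab2, Cubn and Amn, 2 to 54 for Sox7, 1 to 11 for Sox17 and 0 to 4 for Foxa2. In bulk RNA a few cells with a high level and many cells with a low level cannot be told apart. A gene was tested where the libraries compared had a mean of at least 10 reads, by limma on log2(FPKM + 0.01), and called at an adjusted p below 0.05 with an absolute log2 difference above 0.58. Sox17 and Foxa2 did not reach 10 reads in any comparison, and 7 genes were tested in each knockdown comparison. The pseudocount of 0.01 FPKM is worth 23.9 to 31.3 reads in the long gene Cubn and 0.782 to 1.02 reads in Sox7, so log2 differences of the long genes are understated.

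**Figure D1:**
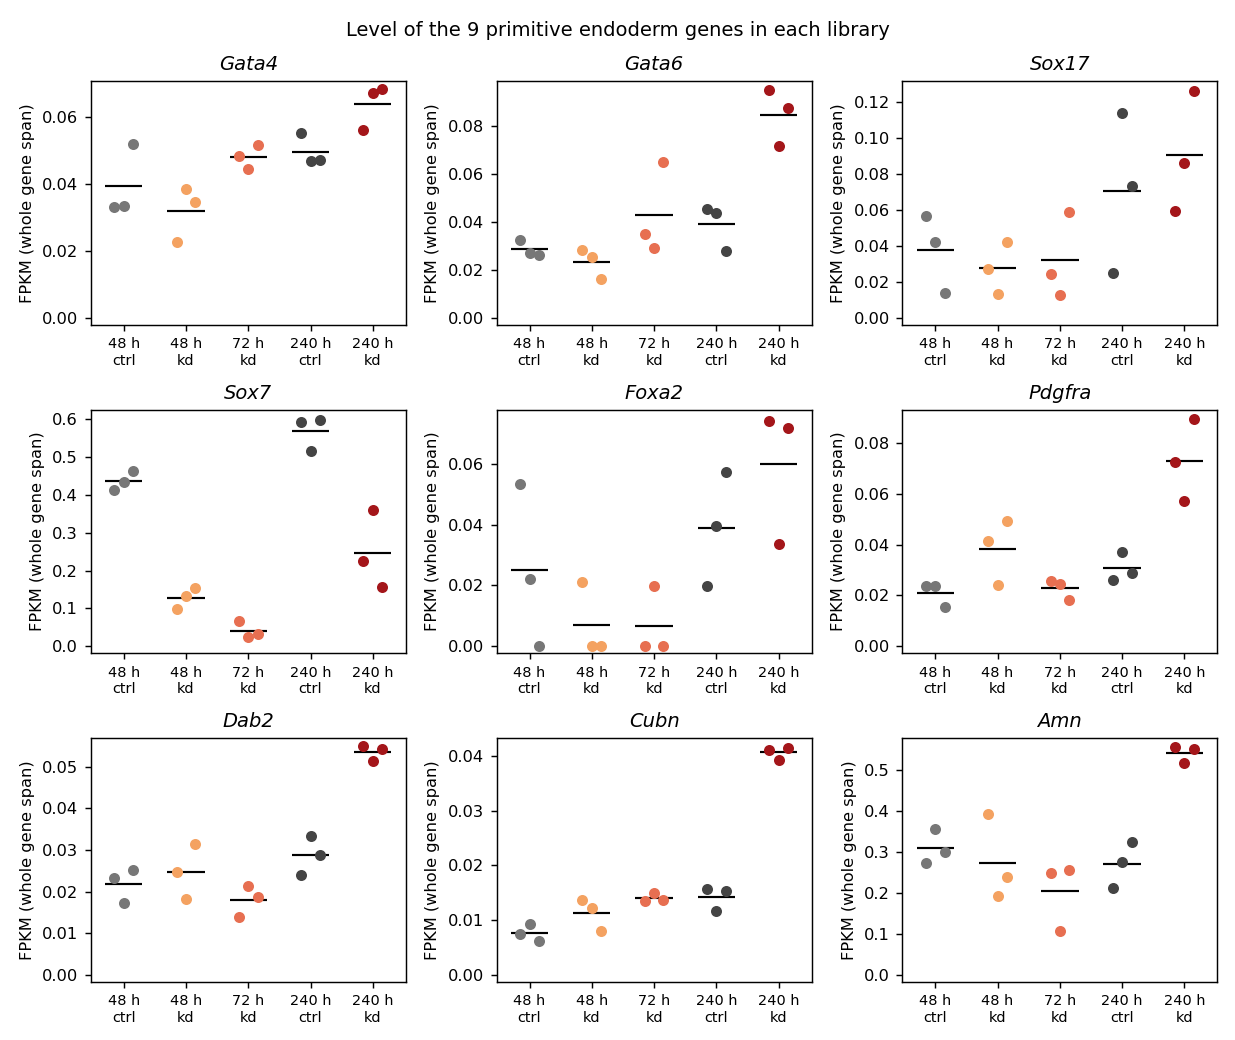
FPKM over the whole gene span (y axis, linear, separate scale for each gene) of the 9 genes in the 15 libraries (points) of the 5 groups, with the group mean as a bar. Gata4, Gata6, Pdgfra, Dab2, Cubn and Amn had their 3 highest libraries in 240 h kd, while Sox7 was lower in each kd group than in both ctrl groups. The share of all genes with such patterns was not determined.

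At 48 h, 1 of the 7 tested genes was called lower and 0 higher in kd than in ctrl cells, where 4.3% and 3.59% of all 16108 tested genes were called lower and higher. At 72 h the same counts were 1 lower and 0 higher, beside 8.86% lower and 11.4% higher over 16146 genes. The gene was Sox7 at both times, and 2 genes had an unadjusted p below 0.05 at each time, Sox7 with Pdgfra at 48 h and with Cubn at 72 h. Limma voom, which works on the recovered reads, called 1 gene at 48 h and 2 at 72 h. Both comparisons share the 48 h ctrl libraries. At 240 h, 5 were called higher (Cubn, Pdgfra, Amn, Gata6 and Dab2) and 1 lower (Sox7), beside 8.37% higher and 7.23% lower over 16633 genes. The median log2 difference of the 7 genes was -0.22 at 48 h, 0.09 at 72 h and 0.96 at 240 h, and that of all tested genes was 0.01 at each time. Of the 7 genes, 5 had a mean below 0.1 FPKM, and among the 2371 tested genes below this level 15.8% were called higher at 240 h with a median of 0.08. With each library centred on these low genes, a setting chosen after seeing the data, the same 5 genes stayed higher and Sox7 lower, with log2 differences of 0.63 for Dab2 to 0.98 for Cubn and -1.34 for Sox7. The calls of Gata6, Pdgfra, Dab2 and Sox7 at 240 h were lost with no minimum of reads (adjusted p = 0.0559 to 0.118). With a pseudocount of 0.1 FPKM the differences of Gata6, Pdgfra, Cubn and Dab2 were 0.41, 0.40, 0.30 and 0.25, below the fold threshold.

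**Figure D2:**
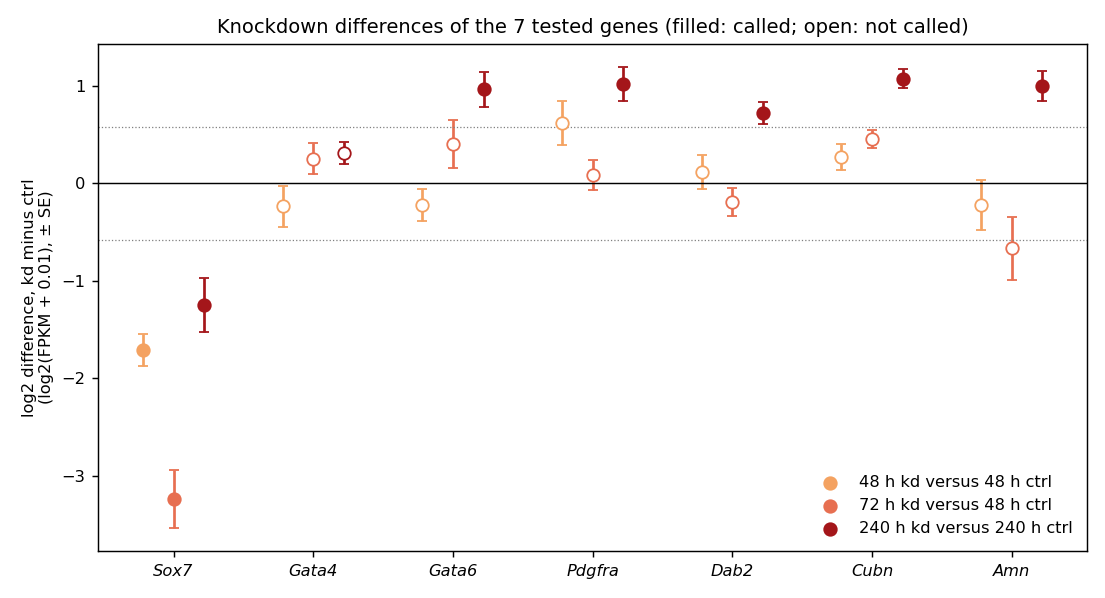
Log2 difference of kd against ctrl on log2(FPKM + 0.01) for the 7 tested genes at 48 h, 72 h and 240 h, with the SE from limma as bars, filled points called and dotted lines at 0.58 and -0.58. Sox7 lies below the lower line at all 3 times, and the 5 filled points above the upper line are all from 240 h.

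**Figure D3:**
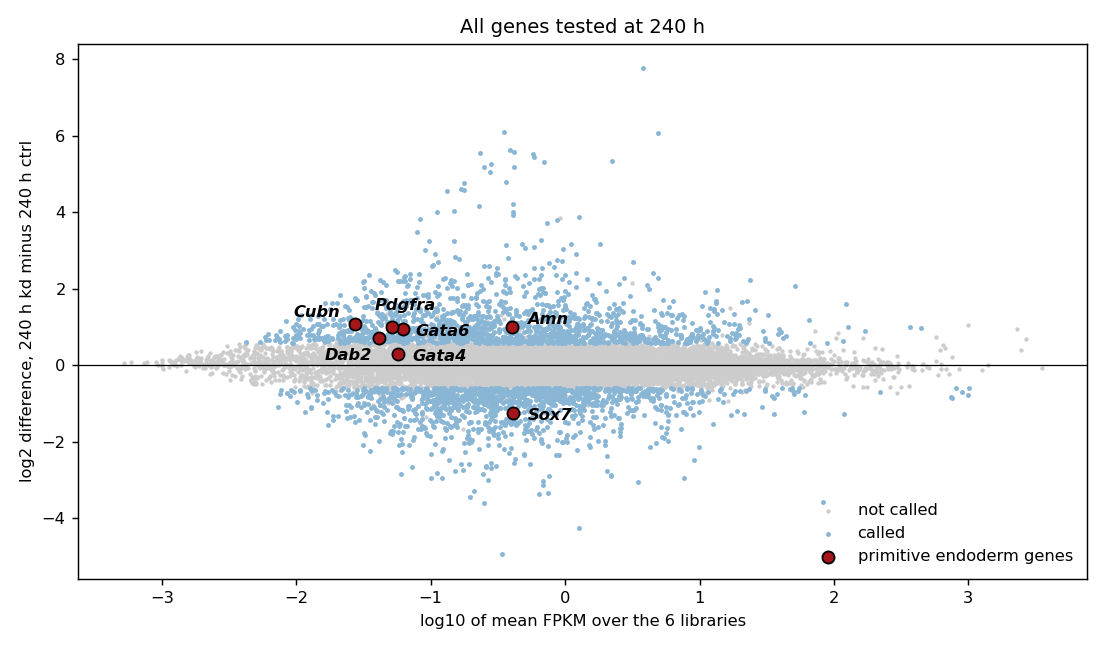
Log2 difference of 240 h kd against 240 h ctrl (y axis) and log10 of the mean FPKM of the 6 libraries (x axis) for the 16633 tested genes, called genes in blue and the 7 primitive endoderm genes ringed. Cubn, Dab2, Pdgfra, Gata6 and Gata4 lie among the genes of low level, and Amn and Sox7 at a higher one.

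Sox7 (ENSMUSG00000063060.6, 14:63943673-63950732 in mm10, plus strand) codes for a transcription factor of the SoxF group that acts late in primitive endoderm and in endothelium. In 48 h ctrl libraries it was at 0.413, 0.434 and 0.463 FPKM (40, 34 and 37 reads), and in 48 h kd libraries at 0.0984, 0.133 and 0.153 FPKM (8, 11 and 12 reads). After 72 h of kd the libraries held 0.0664, 0.0229 and 0.032 FPKM, from 6, 2 and 3 reads. The 3 groups did not overlap. Sox7 fell by 1.71 on the log2 scale at 48 h (SE 0.16, adjusted p = 0.00146), with -1.84 to -1.55 when any single library was left out. At 72 h it fell by 3.24 (SE 0.29, adjusted p = 0.000229). The mean level was thus 29.4% of ctrl at 48 h and 9.26% at 72 h.

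At 240 h Sox7 was at 0.592, 0.518 and 0.598 FPKM in ctrl libraries (52, 45 and 54 reads) and at 0.226, 0.361 and 0.156 FPKM in kd libraries (21, 37 and 15 reads). The kd libraries were all below the ctrl libraries and all above those of 72 h kd. The difference from ctrl was -1.24 (SE 0.28, adjusted p = 0.0138), with a mean level of 43.5% of ctrl. From 72 h to 240 h of kd Sox7 rose by 2.37 (SE 0.40, adjusted p = 0.00266), 6.12-fold in the means, while it stayed under both ctrl groups. The difference between the 240 h and the 48 h effect was 0.47 (SE 0.35, adjusted p = 0.398) and was not called. In order of the mean, 240 h ctrl, 48 h ctrl, 240 h kd, 48 h kd and 72 h kd followed each other with no overlap between neighbours. Between 48 h and 72 h of kd these 6 libraries had a mean of 7 reads, under the minimum, and with no minimum of reads the difference of -1.53 (SE 0.40, adjusted p = 0.0742) was not called.

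Gata6 and Gata4 code for zinc finger transcription factors, Gata6 for the factor that starts the primitive endoderm programme and Gata4 for a later one. Gata6 (ENSMUSG00000005836.10, 18:11052064-11085635, plus strand) was at 0.0326, 0.0269 and 0.0263 FPKM in 48 h ctrl libraries, from 15, 10 and 10 reads, and at 0.0284, 0.0254 and 0.0161 FPKM in 48 h kd libraries, from 11, 10 and 6 reads. The 72 h kd libraries held 0.0349, 0.0289 and 0.0651 FPKM from 15, 12 and 29 reads, so that replicate 3 was far above the other 2. Neither kd group was separate from 48 h ctrl, with log2 differences of -0.23 (adjusted p = 0.371) and 0.40 (adjusted p = 0.201). At 240 h the ctrl libraries were at 0.0455, 0.0435 and 0.0279 FPKM (19, 18 and 12 reads) and the kd libraries at 0.0949, 0.0718 and 0.0875 FPKM (42, 35 and 40 reads). The groups did not overlap, and Gata6 was higher in kd by 0.96 (SE 0.18, adjusted p = 0.00683), 2.17-fold in the means. The noncoding gene 1010001N08Rik shares 504 bases with the start of Gata6 and had 0 to 7 reads per library.

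Gata4 (ENSMUSG00000021944.15, 14:63198922-63271692, minus strand) was at 0.0331, 0.0335 and 0.0522 FPKM in 48 h ctrl, 0.0227, 0.0387 and 0.0347 FPKM in 48 h kd and 0.0483, 0.0445 and 0.0517 FPKM in 72 h kd libraries. Each of these kd groups overlapped with the ctrl group. At 240 h Gata4 was at 0.0552, 0.0469 and 0.0472 FPKM in ctrl (50, 42 and 44 reads) and at 0.0563, 0.0672 and 0.0686 FPKM in kd libraries (54, 71 and 68 reads). All 3 kd libraries lay above all 3 ctrl libraries, but by a small distance, and the difference of 0.31 (SE 0.11, adjusted p = 0.0688) was not called. Over the alternatives its adjusted p ranged from 0.0497 to 0.466, and it was called in none of them.

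Sox17, a SoxF factor of primitive endoderm and of definitive endoderm, and Foxa2, a forkhead factor of endoderm, were close to the limit of detection. Sox17 (ENSMUSG00000025902.13, 1:4490931-4497354, minus strand) had 5, 3 and 1 reads in the 48 h ctrl libraries, 2, 1 and 3 at 48 h of kd, and 2, 1 and 5 at 72 h of kd. The 240 h ctrl libraries held 2, 9 and 6 reads and the 240 h kd libraries 5, 8 and 11. Summed over 3 libraries these were 17 reads in 240 h ctrl (95% exact Poisson interval 9.9 to 27.2) and 24 in 240 h kd (15.4 to 35.7), and the libraries overlapped. Gm37587, which overlaps Sox17 on the other strand, had 0 reads in all libraries. Foxa2 (ENSMUSG00000037025.11, 2:148042877-148046969, minus strand) had 3, 1 and 0 reads in the 48 h ctrl libraries, 1, 0 and 0 at 48 h of kd, and 0, 1 and 0 at 72 h of kd. The 240 h ctrl libraries held 1, 2 and 3 reads and the 240 h kd libraries 4, 2 and 4. Its sums were 6 reads in 240 h ctrl (2.2 to 13.1) and 10 in 240 h kd (4.8 to 18.4). A difference of either gene between kd and ctrl cells was not detectable at this depth. The intervals cover counting error only.

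Pdgfra (ENSMUSG00000029231.15, 5:75152292-75198215, plus strand) codes for the receptor of platelet-derived growth factor that marks primitive endoderm precursors early and supports their survival. It was at 0.0238, 0.0236 and 0.0154 FPKM in 48 h ctrl (15, 12 and 8 reads) and at 0.0416, 0.0241 and 0.0492 FPKM in 48 h kd libraries (22, 13 and 25 reads). Replicate 2 of the kd group, the library that stood apart, lay just above the highest ctrl library and the other 2 clearly above it. The difference of 0.62 (SE 0.23, adjusted p = 0.105) was not called, but without 48 h kd replicate 2 it was 0.85 (adjusted p = 0.0239) and called. At 72 h the kd libraries were at 0.0255, 0.0247 and 0.018 FPKM and overlapped with 48 h ctrl (log2 difference 0.09, adjusted p = 0.652). The genes inside its span, Mir7025, Gm42802 and Gm42803, had 0 to 2, 0 to 1 and 0 reads per library.

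At 240 h Pdgfra was at 0.0263, 0.0371 and 0.0289 FPKM in ctrl (15, 21 and 17 reads) and at 0.0727, 0.057 and 0.0895 FPKM in kd libraries (44, 38 and 56 reads). The kd libraries were all higher, and Pdgfra rose by 1.02 (SE 0.17, adjusted p = 0.00509), 2.38-fold in the means. Of the 4 genes for its ligands, the platelet-derived growth factors, 3 were tested at 48 h and 72 h, with 0 called by limma or by voom and 1 at an unadjusted p below 0.05 at each time. At 240 h 4 were tested and 1, Pdgfd, was higher (0.66, adjusted p = 0.0118), with 4 at an unadjusted p below 0.05. Voom called 3 of them, Pdgfd higher (1.72) and Pdgfb (-0.67) and Pdgfc (-0.63) lower. The list medians were 0.05, 0.16 and -0.15.

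Cubn, Amn and Dab2 serve the same uptake route. Cubilin binds vitamin B12 with its carrier and other proteins at the cell surface, amnionless anchors cubilin in the membrane, and Dab2 links receptors of this kind to clathrin and also dampens signalling by ERK. Cubn (ENSMUSG00000026726.10, 2:13276338-13491813, minus strand), the longest of the 9 genes, had 22, 22 and 15 reads in the 48 h ctrl libraries, 34, 31 and 19 at 48 h of kd, and 37, 40 and 39 at 72 h of kd. The 240 h ctrl libraries held 42, 31 and 42 reads and the 240 h kd libraries 117, 123 and 122. The 240 h kd libraries were at 0.0412, 0.0393 and 0.0416 FPKM, far above the 0.0157, 0.0117 and 0.0152 FPKM of 240 h ctrl. Cubn rose at 240 h by 1.07 (SE 0.10, adjusted p = 0.000358), and the ratio of the mean FPKM was 2.87. At 72 h its libraries were separate from 48 h ctrl with adjusted p = 0.00584, but the difference of 0.45 was below the fold threshold. On the recovered reads with limma voom, where no pseudocount in FPKM is added, Cubn was higher by 0.88 at 72 h (adjusted p = 0.00167) and by 1.52 at 240 h. Against the 240 h ctrl libraries the 72 h difference was -0.01 by limma (adjusted p = 0.956) and not called, with means of 0.014 FPKM in 72 h kd and 0.0142 FPKM in 240 h ctrl.

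Reads of Cubn cannot be told apart from those of Gm13270, a noncoding gene on the other strand that covers its last 49490 bases (2:13271601-13325827, plus strand), since reads were counted without strand. Summed over 3 libraries, Gm13270 had 51 reads beside 59 for Cubn in 48 h ctrl, 75 beside 84 in 48 h kd and 92 beside 116 in 72 h kd. At 240 h it had 72 reads beside 115 in ctrl and 199 beside 362 in kd. The reads of Gm13270 thus equalled 86.4%, 89.3%, 79.3%, 62.6% and 55% of those of Cubn in these groups. Gm13270 itself was called higher by 0.59 at 72 h (adjusted p = 0.00274). At 240 h it was higher by 1.16 (SE 0.20, adjusted p = 0.00501). The summed reads of Cubn exceeded those of Gm13270 by 8, 9, 24, 43 and 163. In 48 h kd replicate 3 Gm13270 had 21 reads and Cubn 19, so that some reads of Gm13270 lay outside Cubn, and how many the genes shared is not known.

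**Figure D4:**
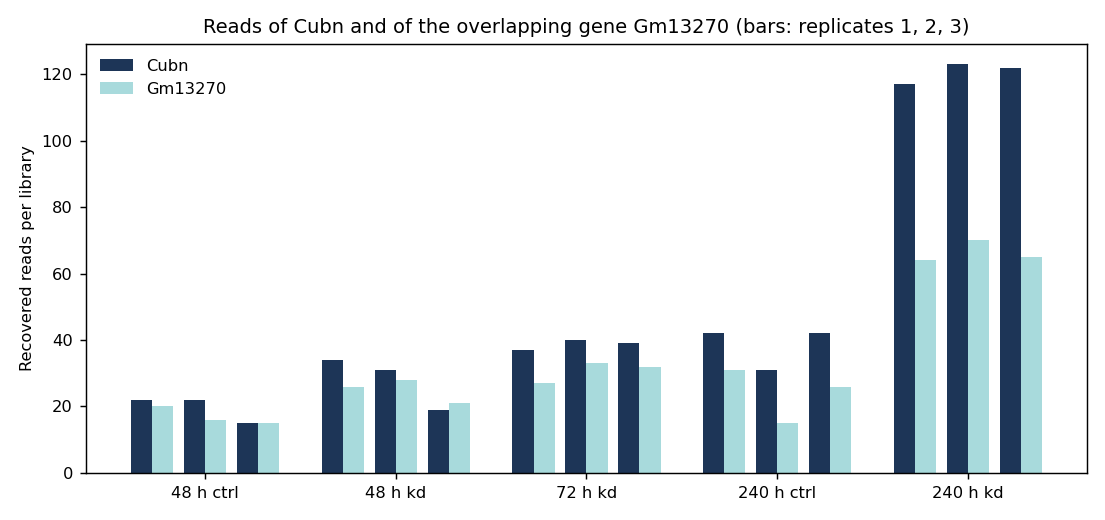
Recovered reads per library (bars, linear axis from 0) of Cubn and of the overlapping gene Gm13270 on the other strand, replicates 1, 2 and 3 from left to right in each group. Both were highest in the 3 libraries of 240 h kd, where Cubn had 117 to 123 reads and Gm13270 64 to 70.

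Amn (ENSMUSG00000021278.7, 12:111271095-111276426, plus strand), a short gene with no overlapping gene listed, was at 0.273, 0.355 and 0.298 FPKM in 48 h ctrl (20, 21 and 18 reads) and at 0.391, 0.192 and 0.237 FPKM in 48 h kd libraries (24, 12 and 14 reads). In 72 h kd it was at 0.249, 0.106 and 0.254 FPKM (17, 7 and 18 reads), each below the lowest 48 h ctrl library. This difference of -0.67 (SE 0.33, adjusted p = 0.123) was not called, and it was -0.28 without 72 h kd replicate 2, the library with 7 reads. At 240 h the ctrl libraries were at 0.211, 0.274 and 0.322 FPKM (14, 18 and 22 reads) and the kd libraries at 0.555, 0.517 and 0.551 FPKM (39, 40 and 40 reads). Amn was higher in kd by 1.00 (SE 0.15, adjusted p = 0.00325), 2.01-fold in the means, with no overlap.

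Dab2 (ENSMUSG00000022150.16, 15:6299788-6440712, plus strand) was at 0.0233, 0.0173 and 0.0251 FPKM in 48 h ctrl, 0.0246, 0.0182 and 0.0314 FPKM in 48 h kd and 0.0139, 0.0213 and 0.0187 FPKM in 72 h kd libraries. These 3 groups overlapped, with log2 differences of 0.11 (adjusted p = 0.681) at 48 h and -0.19 (adjusted p = 0.291) at 72 h. At 240 h Dab2 was at 0.024, 0.0334 and 0.0288 FPKM in ctrl (42, 58 and 52 reads) and at 0.0549, 0.0513 and 0.0542 FPKM in kd libraries (102, 105 and 104 reads). It rose by 0.72 (SE 0.11, adjusted p = 0.00344), 1.86-fold in the means, and the 3 kd libraries differed little from each other. The 2 genes that overlap Dab2 on the other strand, Gm16311 and Gm18888, had 0 reads in all libraries.

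Most reads behind the long genes can be intronic: exons cover 5.36% of the span of Gata4, 5.21% of Dab2 and 6.93% of Cubn, against 34.6% of Amn and 46.7% of Sox7. The deposited values do not divide exonic from intronic reads.

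Untreated cells served to show how far the genes differed between 48 h and 240 h without doxycycline. Harvest and library batch, which the labels do not give, cannot be told apart from time. Between 48 h and 240 h ctrl, 0 of 7 tested genes were called by limma, beside 0.45% of 16215 genes higher and 0.173% lower. At an unadjusted p below 0.05 there were 3, Sox7 (0.37), Cubn (0.46) and Pdgfra (0.40), each with 3 of 3 libraries of 240 h above those of 48 h, and voom called 1, Cubn (0.89, adjusted p = 0.0209). The comparisons between times within kd cells, which follow, have no ctrl term.

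Between 72 h and 48 h of kd, 0 of 6 tested genes were called, beside 6.36% of all tested genes higher and 5.1% lower. At an unadjusted p below 0.05 there were 2, Gata4 (0.49) and Pdgfra (-0.53), and voom called 1, Gata4 (0.61, adjusted p = 0.0389). Without 48 h kd replicate 2 both passed, Gata4 with 0.60 (adjusted p = 0.0336) and Pdgfra with -0.76 (adjusted p = 0.0126). From 72 h to 240 h of kd, 6 of 7 genes were called higher and 0 lower, beside 10.5% and 12% of all tested genes. After Sox7, given above, came Amn (1.46, SE 0.32, adjusted p = 0.00772), Pdgfra (1.33, SE 0.17, adjusted p = 0.000868), Dab2 (1.19, SE 0.12, adjusted p = 0.000278), Cubn (1.08, SE 0.07, adjusted p = 7.27e-05) and Gata6 (0.89, SE 0.25, adjusted p = 0.0221). Among the 2346 tested genes below 0.1 FPKM, 20.3% were called higher, with a median of 0.13 against -0.02 over all genes. The call of Gata6 was lost without 72 h kd replicate 1 or 2 or without 240 h kd replicate 1 or 3 (adjusted p = 0.0601 to 0.0689), and with no minimum of reads (adjusted p = 0.116). Foxa2 was called there (2.22, adjusted p = 0.0404), from 1 read in 72 h kd and 10 in 240 h kd libraries. Gata4 passed the p-value (adjusted p = 0.0259) with a difference of 0.35, below the fold threshold.

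Whether the knockdown effect itself differed between 240 h and 48 h was tested with an interaction term over 12 libraries. It was called for 3 of 7 genes, each with a more positive effect at 240 h, and for 0 in the other direction, beside 5.25% and 4.62% of 16403 genes and 11.6% higher among the 2259 genes below 0.1 FPKM. The differences between the effects were 1.22 for Amn (SE 0.32, adjusted p = 0.0247), 1.19 for Gata6 (SE 0.26, adjusted p = 0.00909) and 0.80 for Cubn (SE 0.16, adjusted p = 0.00688). For Dab2 (0.61, adjusted p = 0.0740), Gata4 (0.54, adjusted p = 0.165) and Pdgfra (0.40, SE 0.31, adjusted p = 0.416) a difference between the times was not shown. Without 48 h kd replicate 3 the difference of Dab2 was 0.74 and called (adjusted p = 0.0318). The call of Amn was lost without 48 h ctrl replicate 2, 48 h kd replicate 3, 240 h ctrl replicate 1 or 240 h kd replicate 1 or 3 (adjusted p = 0.0503 to 0.0612). With no minimum of reads none of the 3 was called (adjusted p = 0.0748 to 0.144), and with a pseudocount of 0.1 FPKM the differences of Gata6 (0.47) and Cubn (0.25) were below the fold threshold.

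Over the 5 groups, 240 h kd was the highest group for Gata4, Gata6, Pdgfra, Dab2, Cubn and Amn, separate from the next in each. Below it neighbours mostly overlapped: in Gata4, Gata6, Dab2, Cubn and Amn the other 4 groups followed each other with overlap at every step. Sox17 and Foxa2 were also highest in 240 h kd by the mean, but overlapped with 240 h ctrl. Sox7 alone had its lowest 3 groups in the 3 kd groups. What share of all tested genes also had 240 h kd highest and separate was not determined. The pattern is thus not shown to be particular to these genes.

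Across the 15 libraries, which share the 5 groups and are not independent of them, Pearson's r of log2 levels was 0.864 between Pdgfra and Dab2, 0.849 between Gata6 and Cubn and 0.792 between Pdgfra and Cubn, and -0.0548 to 0.396 between Sox7 and the other tested genes. Among 10838 genes with at least 50 mean reads, the patterns most like Sox7 were those of E2f8 (r = 0.969) and Thsd1 (0.967). Those most like Cubn were Thbs1 (0.974) and Helz (0.965), like Dab2 Cilp2 (0.966) and Ipo4 (0.948), and like Amn Ccdc86 (0.939) and Rhod (0.878). For Gata6 they were Hps3 (0.930) and Notch2 (0.911), for Pdgfra Prpf31 (0.911) and Aard (0.907), and for Gata4 Ficd (0.897) and Map3k3 (0.885). These are descriptions over all groups, with no test.

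The epiblast and naive pluripotency genes were abundant in all groups, with a summed level of 888 to 1150 FPKM per library. Of 13 tested, 2 fell at 48 h, 3 at 72 h and 5 at 240 h and 0 rose, with medians of -0.16, -0.14 and -0.44. Over all tested genes 4.3%, 8.86% and 7.23% were called lower at 48 h, 72 h and 240 h, and 3.59%, 11.4% and 8.37% higher. The counts of this list and of those below stand beside these shares. On the log2 scale Tbx3 fell by 1.31 at 48 h, 1.11 at 72 h and 1.12 at 240 h, and Klf4 by 0.87, 0.76 and 1.21. Prdm14, a repressor of extraembryonic endoderm genes in ESC, fell by 1.16 at 240 h (adjusted p = 0.00013).

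Of the 16 genes of the FGF and ERK input, 3 rose and 1 fell at 240 h, with a median of -0.02. The receptor Fgfr1 was higher at 48 h (0.60), 72 h (0.76) and 240 h (0.80), and Dusp6, a phosphatase induced by ERK, was higher at 240 h (0.99, adjusted p = 0.000621). Mapk3, which codes for ERK1, fell by 0.92 at 240 h. In 240 h ctrl and 240 h kd the means of Spry2 were 31.6 and 52.0 FPKM and those of Spry4 17.0 and 17.0 FPKM. For Etv4 they were 12.9 and 12.6 FPKM and for Etv5 4.86 and 4.70 FPKM. At 48 h 1 rose and 1 fell (Fgfr3, by 0.83), and at 72 h 2 rose, Fgfr4 (0.84) besides Fgfr1, with medians of -0.04 and 0.09.

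Among relatives and cofactors of the 9 genes, 1 of 8 tested was higher at 48 h and 1 of 9 at 240 h, in both cases Gata1, a blood factor of the GATA family, by 0.79 (adjusted p = 0.0296) and 2.08 (adjusted p = 0.000378). At 72 h 2 of 8 were higher, Gata1 (0.77) and the GATA cofactor Zfpm1 (1.12), and 2 lower, Gata2 (-1.98) and the SoxF gene Sox18 (-0.83). Voom also called Dab1 higher at 48 h (0.60) and, at 72 h, Pdgfrb higher (0.70) and Zfpm2 lower (-0.96). The list medians were 0.06, 0.04 and 0.05.

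The endocytic partners of Cubn, Amn and Dab2 were clathrin, its adaptors and related receptors. Of 16 tested, 0 were called at 240 h by limma or by voom, with a median of -0.08 and 11 at an unadjusted p below 0.05. The co-receptor Lrp2 (megalin), singled out after its values were seen, differed by 0.30 at 48 h (adjusted p = 0.0616), by -0.49 at 72 h (adjusted p = 0.00267) and by 0.32 at 240 h (adjusted p = 0.0312), each below the fold threshold. At 72 h Myo6 (0.82) rose and Cltb (-1.39) and Ap2m1 (-0.62) fell, and at 48 h Cltb alone was called and fell by 1.06. The medians at 48 h and 72 h were -0.11 and -0.05.

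The later derivatives of primitive endoderm moved in both directions. Of 22 visceral endoderm genes, 8, 9 and 10 were tested at 48 h, 72 h and 240 h, of which 0, 2 and 3 rose and 2, 2 and 2 fell, with medians of -0.11, 0.07 and -0.03. Cer1 and Apoa4 were at 0 in all libraries, Afp at 0 to 3 reads and Ttr at 0 to 1 reads. Cited1 rose at 240 h (1.92, adjusted p = 0.000872), Stra6 (1.31) and Lefty1 (1.06) at 72 h, where voom also called Hhex (1.12) and Rbp4 (0.96) higher. Spink1 fell by 1.07, 3.59 and 1.61 at 48 h, 72 h and 240 h, and the transferrin gene Trf by 0.97, 0.86 and 1.25. The summed level of the list was 44.5 to 51.6 FPKM in 48 h ctrl, 96.1 to 101.8 FPKM in 72 h kd, 41.0 to 50.1 FPKM in 240 h ctrl and 36.0 to 38.4 FPKM in 240 h kd libraries. Lefty1 made up most of it, with means of 46.6, 97.2, 42.4 and 34.4 FPKM in these groups.

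Of 17 genes of parietal endoderm and basement membrane, 14, 15 and 16 were tested, of which 1, 2 and 4 rose and 3, 2 and 3 fell, with medians of -0.12, -0.08 and -0.01. At 240 h Pth1r (1.83), Vim (1.45) and Snai1 (1.25) rose, the hormone receptor, the intermediate filament and the repressor of E-cadherin that parietal endoderm uses. The laminin gene Lama1 fell by 1.99, 2.49 and 2.03 at 48 h, 72 h and 240 h, Nid2 by 0.88 at 48 h and 240 h, and Col4a1 by 0.84 at 48 h and 0.64 at 72 h. The summed level was 46.3 to 49.4 FPKM in 240 h ctrl and 68.5 to 72.3 FPKM in 240 h kd libraries, of which Vim alone made up 13.9 ± 0.64 and 37.9 ± 1.3 FPKM.

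**Figure D5:**
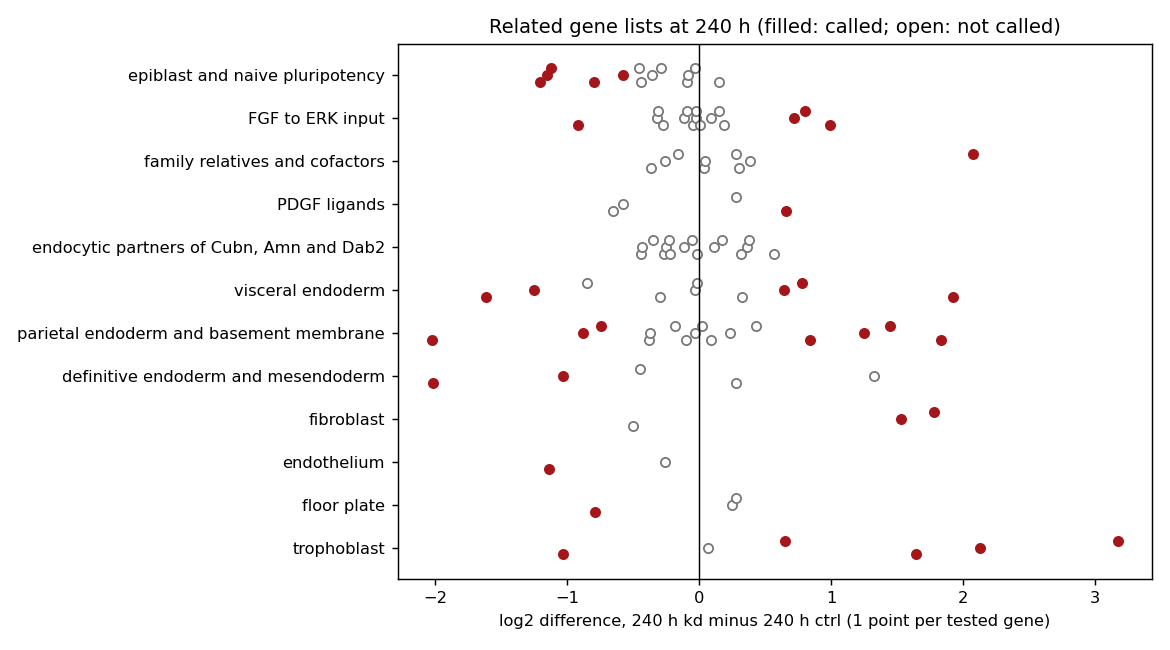
Log2 difference of 240 h kd against 240 h ctrl on log2(FPKM + 0.01), 1 point per tested gene of each related list, filled where called. Calls fell on both sides of 0 in the visceral and parietal endoderm lists, while 4 of 6 trophoblast genes were called higher and 5 of 13 epiblast genes lower. The trophoblast genes Hand1, Cdx2 and Krt7 and the fibroblast gene Col1a2 passed the read minimum only through 240 h kd.

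Markers of other cell types that share genes with this set were read as well, and their part in the results was not tested. Of 9 fibroblast markers, 2 of 3 tested rose at 240 h, Col1a1 (1.78, also 0.71 at 48 h and 0.77 at 72 h) and Col1a2 (1.53). Col1a2 reached the read minimum only because of its 240 h kd libraries, with 22 to 30 reads each. Untreated cells of 240 h held 5 to 6 reads of it per library, so counting it among the tested genes hangs on its rise. Thy1 fell by 0.98 at 48 h and 1.11 at 72 h, which made 1 higher and 1 lower of 2 tested at both times. Their summed level was 0.862 to 0.993 FPKM in 240 h ctrl and 1.42 to 1.69 FPKM in 240 h kd libraries, with Dcn and Lum at 0 to 1 reads in each library. Of 9 trophoblast markers, 4 of 6 tested rose at 240 h and 1 fell, with Hand1 (3.18), Cdx2 (2.13) and Krt7 (1.65) in front. In 240 h ctrl these had 2 to 8, 4 to 8 and 5 to 9 reads per library, and in 240 h kd 40 to 56, 28 to 32 and 27 to 32. They passed the read minimum only through 240 h kd, so the count of 4 of 6 depends on the rise itself. The summed level of the 9 trophoblast markers was 8.22 to 8.84 FPKM in 240 h ctrl and 13.4 to 13.7 FPKM in 240 h kd libraries. Tfap2c made up most of it, with means of 7.33 and 11.5 FPKM. In 48 h kd the sum was lower, at 5.92 to 6.59 FPKM against 9.49 to 10.2 FPKM in 48 h ctrl. At 48 h 2 of 2 tested trophoblast genes fell, Eomes and Tfap2c (by 0.62), and at 72 h 1 of 2 rose, Tfap2c (0.92).

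Of 7 endothelial markers 2 were tested, of which 1, 2 and 1 were called lower at 48 h, 72 h and 240 h. Tek fell by 1.21, 1.24 and 1.14 at these times and Sox18 by 0.83 at 72 h, while Cdh5 had 0 to 5 reads per library. The summed level of the 7 endothelial markers was 1.41 to 1.92 FPKM in 240 h ctrl and 1.12 to 1.62 FPKM in 240 h kd libraries. Of 6 floor plate markers, 0 of 2, 1 of 2 (Spon1, -0.60) and 1 of 3 (Ntn1, -0.79) were called, in each case lower, and the list summed to 1.30 to 1.45 FPKM in 240 h ctrl and 0.888 to 0.957 FPKM in 240 h kd libraries. Of 10 markers of definitive endoderm and mesendoderm, 1 of 4 tested fell at 48 h (Eomes, by 0.71), 1 of 4 rose at 72 h (Tbx6, 1.37) and 2 of 5 fell at 240 h, Eomes by 1.03 and Cxcr4 by 2.02. Voom also called Tbx6 higher at 48 h (1.40, adjusted p = 0.0313) and Mixl1 higher at 240 h (1.33, adjusted p = 0.00710). Their summed level was 2.29 to 2.40 FPKM in 240 h ctrl and 1.96 to 2.05 FPKM in 240 h kd libraries.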

How the data were processed

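RNA of 15 libraries was sequenced. The authors aligned single-end reads to mm10 (GRCm38.p6) with STAR 2.7.0c, assigned them to genes in R 4.0.3 and ran DESeq2 1.30.0. They deposited FPKM, 1 value per gene and library, with coordinates and symbol. The annotation behind the counts is not given in the sources used here. Of 55228 listed genes, 53297 (96.5%) matched GENCODE M21, which gave identifiers, strand and exons.

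Each deposited FPKM above 0, multiplied by the whole gene span and a total for its library, came out as a whole read number (100% of values, tolerance 0.001). Reads summed over genes exceeded the totals by 7.38% to 8.34%. Counting reads on overlapping genes more than once would give such an excess, but its source was not tested. Values mix exons and introns, and genes overlapping on either strand can share reads. Counting error is set by the reads given beside each value, and reads carry no molecular identifiers.

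FPKM are not counts, so limma 3.58.1 was run in R 4.3.3 (two-sided, lmFit, eBayes with trend) on log2(FPKM + 0.01), for genes that averaged at least 10 recovered reads, in the libraries of the groups compared and over 12 libraries for the interaction. P-values were adjusted by Benjamini-Hochberg over all genes tested, and thresholds were those of the study. Every adjusted p in the text is from limma, including limma voom where named. With 3 libraries a group, exact permutation gives no two-sided p under 0.1 and was left out. The members, gene lists and tests were chosen with earlier results of these data known. Named were the 9 members, Smarcb1, genes overlapping a member, and for each list up to 3 called genes per direction with the largest change, plus list genes at 0 in all libraries. A gene that this rule selects is not reported here. For likeness the 2 genes with the highest r were named. Other list genes with few reads, Lrp2, Spry2, Spry4, Etv4, Etv5 and list genes called by voom alone were named after their values were seen. Some list genes passed the read minimum only through the group in which they were high. Counts of called genes among those tested depend in part on that level. The fits were tested on simulated data. Replicates of a group differed by more than sampling noise (chi-square per degree of freedom 1.30 to 11.3). Alternatives were pseudocounts of 0.1 and 1 FPKM, no read minimum, at least 0.5 FPKM in its place together with a pseudocount of 0.1 FPKM, TPM, centring on the median or (added after seeing the data) on genes below 0.1 FPKM, 1 fit of all 15 libraries, the replicate number as a block, voom on recovered reads, no fold threshold, another control for 72 h, and each library left out. Promoter sequences are from RefSeq. Python 3.11.15, numpy 2.4.6, pandas 2.3.3, scipy 1.17.1 and matplotlib 3.10.9 were used.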

Additional observations from a re-analysis of the deposited data

Results flagged for a closer look

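The knockdown effect of 3 genes differed between 240 h and 48 h by the interaction term of limma. For Amn the effect was -0.22 at 48 h and 1.00 at 240 h, a difference of 1.22 (adjusted p = 0.0247). For Gata6 it was -0.23 and 0.96, a difference of 1.19 (adjusted p = 0.00909). For Cubn it was 0.27 and 1.07, a difference of 0.80 (adjusted p = 0.00688). The reads of Gm13270 share a stretch with Cubn, and its own difference between the times was 0.68 (adjusted p = 0.0680). None of the 3 was called with no minimum of reads (adjusted p = 0.0748 to 0.144), and Amn alone with a pseudocount of 0.1 FPKM. No group had the 4 libraries needed to look for single libraries far from the others by a fixed rule.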

How the results depend on the processing

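No member changed direction while called. Leaving out 1 library gave 1 to 2 members called at 48 h, 1 to 1 at 72 h, 6 to 6 at 240 h, 0 to 0 between the ctrl groups, 0 to 2 for 72 h against 48 h kd, 5 to 6 for 240 h against 72 h kd and 2 to 3 for the interaction. A pseudocount of 1 FPKM, far above most members' levels, left 0 called in each comparison, and one of 0.1 FPKM left 2 at 240 h, 2 for 240 h against 72 h kd and 1 for the interaction. With no minimum of reads, which takes the tested genes to many more low ones, 2 were called at 240 h (Cubn and Amn) and 0 for the interaction, and for 240 h against 72 h kd Gata6 was lost and Foxa2 called. Rescaling to TPM, with the same 0.01 on a scale of larger values, gave 2 at 72 h, 1 between the ctrl groups (Cubn) and 1 for 72 h against 48 h kd (Gata4). Voom gave 2, 1 and 1 there, and no fold threshold gave 2 at 72 h. In 1 fit of all 15 libraries 2 were called at 48 h (with Pdgfra) and 1 for 72 h against 48 h kd (Gata6), and Amn was lost from the interaction (adjusted p = 0.0634), as it was when centred on low genes (adjusted p = 0.0503). With 240 h ctrl as the control of 72 h kd, 1 was called. A minimum of 0.5 FPKM with a pseudocount of 0.1 FPKM left no member in the knockdown comparisons to test. The causes were not tested.

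Same-numbered replicates did not deviate together (correlations of -0.213 to 0.192), so the number did not pair the samples. The replicate block changed no call of a member, with 6 called at 240 h, and took the genes called between the ctrl groups from 101 to 0.

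Over all genes, 1271, 3265, 2594, 101, 1847, 3728 and 1619 were called at 48 h, 72 h, 240 h, between ctrl groups, 72 h against 48 h kd, 240 h against 72 h kd and for the interaction. A pseudocount of 1 FPKM gave 188, 684, 520, 15, 306, 828 and 343, a minimum of 0.5 FPKM together with 0.1 FPKM added 456, 1548, 1016, 54, 857, 1803 and 664, and no fold threshold 3263, 9176, 6432, 444, 5920, 9982 and 2966. With 0.1 FPKM added there were 720 at 48 h, 1656 at 240 h, 67 between ctrl groups and 1155 for 72 h against 48 h kd. No read minimum gave 811 at 48 h, and 2073 higher and 1944 lower for 240 h against 72 h kd. Between ctrl groups TPM gave 307, 1 fit 197, voom 220 and single libraries left out 0 to 2. Centring on low genes took higher and lower calls from 579 and 692 to 696 and 627 at 48 h, from 1392 and 1202 to 1120 and 1537 at 240 h, from 1742 and 1986 to 1248 and 2888 for 240 h against 72 h kd, where TPM gave 2405 and 1672, and from 861 and 758 to 647 and 1212 for the interaction, where the 0.5 FPKM minimum with 0.1 FPKM added gave 310 and 354. Centring on the median gene turned 1835 and 1430 to 1536 and 1755 at 72 h, 1025 and 822 to 868 and 997 for 72 h against 48 h kd, and 1742 and 1986 to 2051 and 1669 for 240 h against 72 h kd. Between ctrl groups 73 and 28 became 273 and 34 with TPM and 131 and 89 with voom.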
